A study of Mus musculus with 36 samples.

Results

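Macrophages that had shared a culture with glioma cells were compared with macrophages kept alone, 6 h after both had been given myelin debris. The comparison takes 6 of the 36 bulk RNA sequencing libraries of the series, 3 from co-culture and 3 from mono-culture, chosen by cell type, culture and time in their labels. The macrophages were grown from mouse bone marrow. Their partners in co-culture were cells of the line PDG-Ink4a Recurrent, from a relapsed glioma of a mouse model in which platelet-derived growth factor B is forced on in Nestin-positive progenitors that lack Ink4a/Arf. Both groups had the same myelin exposure. The labels name no strain or age, do not say how long the cells had been together before the myelin, and use 1 tumour line, so nothing here extends to other gliomas. Macrophage libraries of both cultures at 0 h (no myelin) and 24 h, 3 per group, share the fit and are set beside the 6 h values.

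Macrophages are abundant in gliomas and clear dying cells and myelin, the lipid-rich sheath of axons. Sterol that enters with myelin is known to be stored as ester, exported through transporters under the control of the nuclear receptor LXR, and sensed by the SREBP system, which switches sterol synthesis genes on when sterol is short. Macrophages also answer their neighbours with chemokines, which recruit leukocytes, and with growth factors. Interferon-stimulated genes, the antiviral programme downstream of STAT2 and IRF factors, can be switched on by cytokines of neighbouring cells. In these bulk libraries, a change in RNA per cell cannot be told apart from a change in the share of cells that make it.

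The 6 libraries held 7911378 to 14611005 counts, within the range of the whole series (7911378 to 15319104). Macrophage markers identified both groups: 12 of them summed to 16743 to 18454 CPM, which scales counts to library size, in co-culture, against 10931 to 15374 CPM in mono-culture, led by the lysozyme gene Lyz2. Markers of neutrophils summed to at most 79.1 CPM in co-culture and 87.4 CPM in mono-culture, those of T and NK cells to at most 4.84 CPM in co-culture and 3.00 CPM in mono-culture, and those of dendritic cells to at most 3.34 CPM in co-culture and 1.78 CPM in mono-culture. Fibroblast and stroma markers, which the tumour line makes, summed to 199 to 659 CPM in co-culture and 1.39 to 12.6 CPM in mono-culture, and 7 of the 7 tested are among the genes set aside below. The 18 glioma markers in the table summed to 5639 to 6966 CPM in co-culture and 3172 to 4705 CPM in mono-culture. They were led by Vim, with 5049 CPM in co-culture and 3325 CPM in macrophages kept alone. Of the 18, 8 were under 1 CPM in all 6 libraries, and Sox10, Bcan, Ncan and Ptprz1 had no count in any of the 6 libraries. RNA of tumour cells was present in the co-culture libraries. By the median of 50 genes chosen as high in tumour cells, its share was 0.977, 3.34 and 1.34% in co-culture, against 0, 0.00294 and 0.0168% in mono-culture (exact permutation p = 0.1, two-sided, the smallest that 3 against 3 libraries allow). Libraries numbered 1 came from male macrophages and those numbered 2 and 3 from female ones, by Xist and Ddx3y. The Y-linked Ddx3y stood at 3.65 and 2.49 CPM in co-culture replicates 2 and 3, against 0 in both mono-culture replicates. Replicate 1 also held more of CT010467.1, which made up 4.08% of its counts in co-culture and 15.1% in mono-culture, and 0.393 to 1.22% in the other 4 libraries. Mono-culture replicate 1 had the fewest counts (7911378). Its log2 levels correlated with those of mono-culture replicates 2 and 3 at 0.972 and 0.972, against 0.993 between replicates 2 and 3. The labels do not say that the 3 libraries of a group are separate cultures, so p-values measure the spread between these libraries.

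Of 29883 genes in the table, 13165 had enough counts to test. Because of the tumour RNA, 757 of these, with a mean CPM over 20 times higher in tumour cells than in macrophages (both alone, at 0 h), were set aside, and 12408 remain. The genes nearest that limit were Kif1a at a ratio of 19.8, which remains, with 0.821 CPM in co-culture and 0.305 CPM in mono-culture, and Lpar1 at 20.1, set aside, with 4.45 CPM in co-culture and 4.33 CPM in mono-culture. Of the genes set aside, 411 (54.3%) were called higher in co-culture macrophages and 0 lower. With them, 9.94% of the 13165 genes were called, 5.82% higher and 4.12% lower.

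Co-culture changed 898 of the 12408 genes at an edgeR quasi-likelihood Benjamini-Hochberg adjusted p under 0.05, which is 7.24% of them: 355 were higher (2.86%) and 543 lower (4.38%). The change was at least 2-fold for 108 of the higher and 117 of the lower genes. With the female-source replicates 2 and 3 alone, 729 of 12158 genes were called (6%), 340 higher (2.8%) and 389 lower (3.2%). Leaving out co-culture replicate 1 left 590 genes and leaving out co-culture replicate 2 left 574. After the estimated tumour RNA was subtracted from each co-culture library, 676 genes were called (5.47%), 294 higher (2.38%) and 382 lower (3.09%), with 662 of them among the 898. For 266 of the 355 higher genes the estimated tumour contribution was under 10% of the difference between cultures, and for 6 it was over 50%.

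Trem1 (chr17:48232768-48246924, mm10), a receptor that amplifies inflammatory signals in myeloid cells, had 15.5, 23.4 and 15.5 CPM in co-culture, against 0.608, 2.69 and 2.00 CPM in mono-culture. All 3 co-culture libraries lay far above the mono-culture ones, and the mean difference was 9.31-fold (log2 change 3.22 ± 0.41 (SE), edgeR adjusted p = 0.000202). Fcgr2b (chr1:170958617-170976547), the inhibitory receptor for immunoglobulin G, had 53.4, 58.1 and 61.0 CPM in co-culture, against 12.0, 10.5 and 13.9 CPM in mono-culture. Its libraries were tight within each culture and did not overlap, with a 4.74-fold difference (log2 change 2.25 ± 0.17 (SE), edgeR adjusted p = 2.09e-06). Clec4n, which encodes the fungal sensor Dectin-2, had 12.1, 14.8 and 18.5 CPM in co-culture, against 4.26, 2.36 and 3.12 CPM in mono-culture (log2 change 2.28, edgeR adjusted p = 0.000282). Cd300lf, a lipid-binding receptor with inhibitory motifs, had 40.2, 45.5 and 28.9 CPM in co-culture, against 3.50, 9.70 and 7.37 CPM in mono-culture (log2 change 2.41, edgeR adjusted p = 0.00185). In neither did the cultures overlap, which was a condition for naming the largest changes. Mono-culture replicate 1 was the lowest library for Cd300lf.

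Socs3 (chr11:117966079-117970047), a feedback inhibitor that STAT3 signalling induces, had 8.54, 21.0 and 16.4 CPM in co-culture, against 0.912, 2.96 and 3.28 CPM in mono-culture (log2 change 2.58 ± 0.44 (SE), edgeR adjusted p = 0.0014). Replicate 1 was the lowest library in both cultures. Also, 3 members of the Ms4a6 family of tetraspan membrane proteins rose: Ms4a6b had 34.4, 17.5 and 26.5 CPM in co-culture, against 3.04, 3.37 and 6.33 CPM in mono-culture (log2 change 2.58, edgeR adjusted p = 0.00201), Ms4a6c averaged 81.3 ± 19.5 CPM in co-culture and 19.7 ± 6.26 CPM in mono-culture (log2 change 2.02, edgeR adjusted p = 0.000948), and Ms4a6d, named after its values were seen, 236 ± 21.2 CPM in co-culture and 82.6 ± 10.4 CPM in mono-culture (log2 change 1.51, edgeR adjusted p = 1.51e-05, SD, n = 3 each). These genes are close copies of each other on chromosome 19, so counts may be shared between them. Gcnt2, a glycan-branching enzyme, averaged 11.5 ± 0.776 CPM in co-culture and 1.81 ± 0.529 CPM in mono-culture (log2 change 2.59, edgeR adjusted p = 3.44e-05). Pde3b, which breaks down cyclic AMP, averaged 16.3 ± 4.33 CPM in co-culture and 3.04 ± 1.27 CPM in mono-culture (log2 change 2.33, edgeR adjusted p = 0.000419). Fcrls, an Fc receptor-like gene known as a microglial marker, had 31.6, 16.2 and 36.8 CPM in co-culture, against 3.95, 3.84 and 11.0 CPM in mono-culture (log2 change 2.13, edgeR adjusted p = 0.0117). The lowest co-culture library of Fcrls still exceeded the highest mono-culture one, but the call was lost without mono-culture replicate 2 and with replicates 2 and 3 alone (edgeR adjusted p = 0.0565 and 0.0752).

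**Figure D1:**
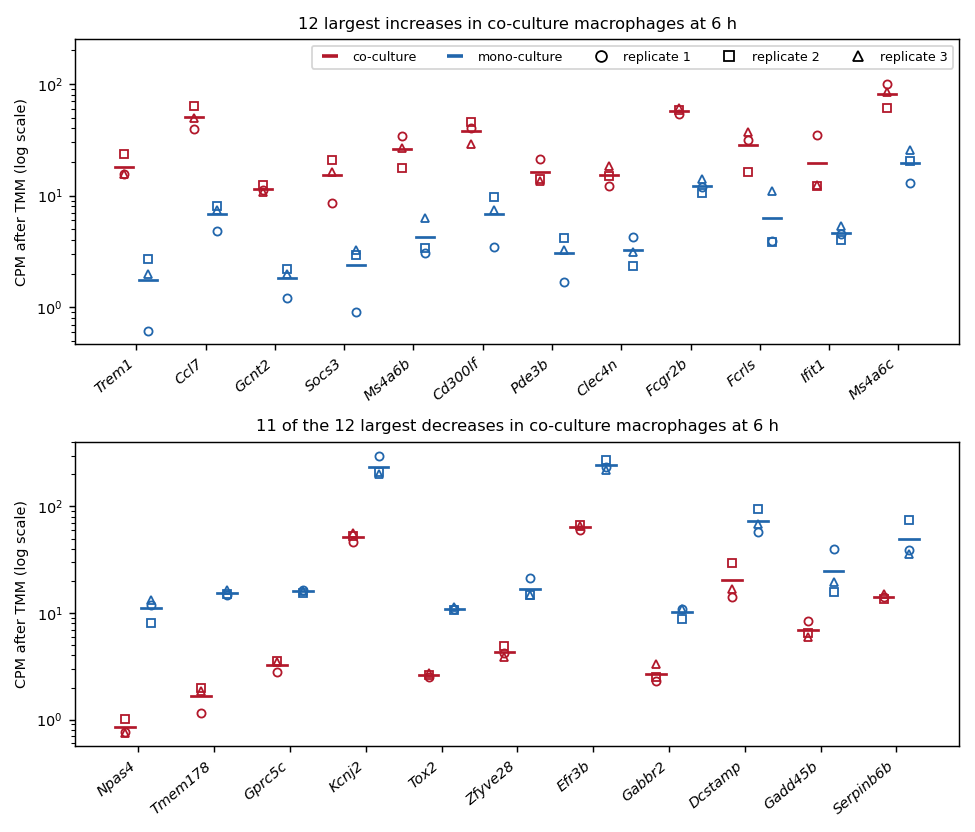
Levels of the 12 genes with the largest increase and 11 of the 12 with the largest decrease in co-culture macrophages at 6 h, as CPM after TMM normalisation on a log axis, with 1 symbol per library and a bar at the mean of 3 (co-culture red, left of mono-culture blue). In each of the 23 genes the 3 co-culture libraries and the 3 mono-culture libraries do not overlap, which was a condition for naming them.

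The largest decrease among the named genes was that of Npas4. Npas4 (chr19:4984355-4990316), a transcription factor best known for its induction by calcium in neurons, had 0.767, 1.02 and 0.756 CPM in co-culture, against 11.9, 8.08 and 13.2 CPM in mono-culture. The co-culture libraries sat near 1 CPM and all mono-culture libraries above 8 CPM (log2 change -3.67 ± 0.28 (SE), edgeR adjusted p = 2.09e-06). Kcnj2 (chr11:111066164-111076821), the inward-rectifier potassium channel Kir2.1, had 46.4, 53.2 and 56.6 CPM in co-culture, against 298, 208 and 202 CPM in mono-culture. That is 4.52-fold lower in co-culture, with mono-culture replicate 1 the highest library (log2 change -2.18 ± 0.17 (SE), edgeR adjusted p = 3.08e-06). Tmem178, an endoplasmic reticulum protein that limits osteoclast formation in mice, had 1.15, 1.97 and 1.85 CPM in co-culture, against 14.7, 15.1 and 16.5 CPM in mono-culture (log2 change -3.19 ± 0.30 (SE), edgeR adjusted p = 1.52e-05). Efr3b, a membrane anchor of a lipid kinase complex, averaged 64.5 ± 3.92 CPM in co-culture and 242 ± 26.9 CPM in mono-culture (log2 change -1.91 ± 0.15 (SE), edgeR adjusted p = 2.09e-06). Both genes were low in each co-culture library with no overlap, which was a condition for naming them.

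Dcstamp, which is needed for the fusion of macrophages and osteoclasts, had 14.2, 29.5 and 16.9 CPM in co-culture, against 57.2, 95.5 and 68.7 CPM in mono-culture (log2 change -1.87, edgeR adjusted p = 0.00199). It was the 1 member called of 11 tested on the list of fusion and osteoclast-like genes, whose median log2 change was -0.39. Gprc5c, an orphan G protein-coupled receptor, averaged 3.27 ± 0.425 CPM in co-culture and 16.0 ± 0.607 CPM in mono-culture (log2 change -2.27, edgeR adjusted p = 3.08e-06). Gabbr2, a subunit of the GABA-B receptor, averaged 2.69 ± 0.530 CPM in co-culture and 10.2 ± 1.17 CPM in mono-culture (log2 change -1.90, edgeR adjusted p = 8.18e-05, SD, n = 3 each).

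Among the remaining large decreases, Tox2, an HMG-box factor, averaged 2.62 ± 0.127 CPM in co-culture and 10.9 ± 0.455 CPM in mono-culture (log2 change -2.05, edgeR adjusted p = 0.0001). The growth arrest gene Gadd45b averaged 6.93 ± 1.34 CPM in co-culture and 25.0 ± 13.0 CPM in mono-culture (log2 change -1.83, edgeR adjusted p = 0.00232), and the protease inhibitor Serpinb6b 14.3 ± 0.778 CPM in co-culture and 49.9 ± 21.7 CPM in mono-culture (log2 change -1.82, edgeR adjusted p = 0.00153). Zfyve28, which dampens EGF receptor signalling, averaged 4.32 ± 0.531 CPM in co-culture and 17.0 ± 3.74 CPM in mono-culture (log2 change -1.95, edgeR adjusted p = 1.65e-05, SD, n = 3 each). Zfyve28 overlaps Gm15513 in the table, and the sources used here do not say whether counting used strand, so reads cannot be assigned between the pair.

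The genes were then read through 29 lists of pathways and functions. The median log2 change over all 12408 genes was -0.04. Over the same genes 2.86% were called higher and 4.38% lower, the shares to set beside each list count at 6 h. Genes named as the largest called members of a list had to show no overlap between cultures. Chemokines and interferon-stimulated genes had the highest medians, 1.08 and 1.06, and NRF2 targets the lowest, -0.47.

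**Figure D2:**
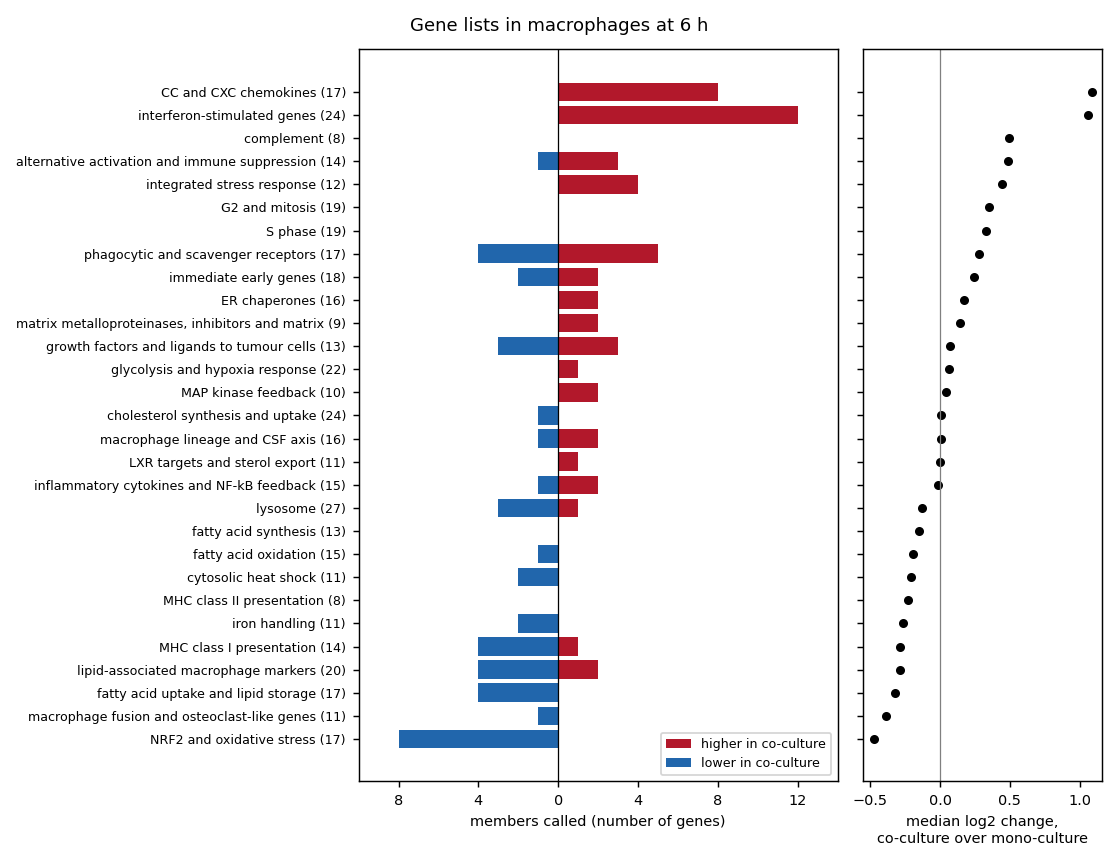
Number of members of each gene list called higher (red, to the right) or lower (blue, to the left) in co-culture macrophages at 6 h, with the number of members tested in brackets, and in the right panel the median log2 change of the list. Chemokines (8 higher, 0 lower) and interferon-stimulated genes (12 higher, 0 lower) lie at the top and NRF2 targets (0 higher, 8 lower) at the bottom.

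Of 17 chemokine genes tested, 8 rose and 0 fell, against 2.86% and 4.38% of all genes. Ccl7 (chr11:82045712-82047525), a ligand of CCR2 that draws monocytes, had 39.7, 63.8 and 49.2 CPM in co-culture, against 4.87, 8.02 and 7.45 CPM in mono-culture. The cultures were far apart, 7.29-fold on average (log2 change 2.87 ± 0.44 (SE), edgeR adjusted p = 0.00078). Its neighbour Ccl2 (chr11:82035571-82037453), the main CCR2 ligand, had 212, 270.1 and 203 CPM in co-culture, against 45.6, 78.9 and 67.7 CPM in mono-culture (log2 change 1.82, edgeR adjusted p = 0.0261). Co-cultured tumour cells at 6 h also made both, at 85.7 CPM of Ccl7 and 97.1 CPM of Ccl2, which at the estimated share adds 1.61 and 1.83 CPM to co-culture macrophages. The Ccl2 call was lost with replicates 2 and 3 alone (edgeR adjusted p = 0.106) and when any library other than co-culture replicate 3 was left out (up to 0.1).

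Pf4, a platelet-type CXC chemokine that macrophages also express, had 29.4, 21.8 and 35.2 CPM in co-culture, against 7.45, 12.1 and 15.1 CPM in mono-culture (log2 change 1.29, edgeR adjusted p = 0.00972). Ccl6 averaged 275 ± 40.2 CPM in co-culture and 122 ± 38.5 CPM in mono-culture (log2 change 1.17, edgeR adjusted p = 0.00651). Cxcl16, the ligand of CXCR6, averaged 173 ± 8.65 CPM in co-culture and 77.7 ± 22.9 CPM in mono-culture (log2 change 1.15, edgeR adjusted p = 0.00575). Ccl4 averaged 14.2 ± 1.63 CPM in co-culture and 6.25 ± 1.19 CPM in mono-culture (log2 change 1.20, edgeR adjusted p = 0.0054, SD, n = 3 each). The other 2 called members, Ccl12 and Cxcl3, stayed at or below 3.21 CPM in each library. Ccl3, Ccl9 and Cxcl14 were expressed but did not pass, with 57.7 ± 11.3 CPM in co-culture and 49.2 ± 5.93 CPM in mono-culture for Ccl3. The count was 7 after subtraction of tumour RNA, 8 with replicates 2 and 3 alone, and 6 to 7 with 1 library left out. DESeq2 and the replicate block each called 9. Mono-culture replicate 1 was the lowest of its group for 14 of the 17 genes.

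The inflammatory cytokine genes Il1b, Tnf and Il18 did not pass. Of 15 cytokine and NF-kB feedback genes, 2 rose (Nfkbiz, log2 change 0.97, edgeR adjusted p = 0.0104, and Irak3, log2 change 0.37, edgeR adjusted p = 0.0284) and 1 fell (Nfkbie, log2 change -0.93, edgeR adjusted p = 0.00133). Over all genes 2.86% rose and 4.38% fell. Tnf had 58.7, 72.1 and 65.4 CPM in co-culture, against 45.8, 80.4 and 64.3 CPM in mono-culture, with overlapping cultures (log2 change 0.03 ± 0.29, edgeR adjusted p = 0.961). Il1b stayed at or below 1.39 CPM in co-culture and 0.760 CPM in mono-culture.

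Ligands that act on tumour cells moved in both directions, with 3 of 13 members higher and 3 lower, against 2.86% and 4.38% of all genes. Osm (chr11:4236420-4241026), which encodes oncostatin M, a cytokine that acts through STAT3 and is known to push glioma cells toward a mesenchymal state, had 14.0, 19.4 and 15.9 CPM in co-culture, against 7.30, 4.85 and 6.09 CPM in mono-culture. Each co-culture library lay above each mono-culture library (log2 change 1.46 ± 0.24 (SE), edgeR adjusted p = 0.000897), and co-cultured tumour cells held 0.599 CPM. Spp1, osteopontin, was among the most abundant transcripts, with 5920.3, 5509 and 6689.6 CPM in co-culture, against 3478, 3142 and 4148 CPM in mono-culture (log2 change 0.75 ± 0.16 (SE), edgeR adjusted p = 0.0053). Tumour cells held 4102 CPM of Spp1, and the increase was as large after subtraction of their share (log2 change 0.78). Hgf, hepatocyte growth factor, averaged 39.2 ± 7.00 CPM in co-culture and 24.8 ± 2.27 CPM in mono-culture (log2 change 0.67, edgeR adjusted p = 0.0083).

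The platelet-derived growth factor genes Pdgfb and Pdgfa fell. Pdgfb had 59.6, 72.9 and 64.0 CPM in co-culture, against 81.8, 158 and 120.4 CPM in mono-culture (log2 change -0.88, edgeR adjusted p = 0.0393), a call lost when any library other than mono-culture replicate 1 was left out (edgeR adjusted p up to 0.157) and after subtraction (edgeR adjusted p = 0.0785). Pdgfa averaged 38.0 ± 2.00 CPM in co-culture and 54.6 ± 5.68 CPM in mono-culture (log2 change -0.52, edgeR adjusted p = 0.0239), a call lost without co-culture replicate 1 or 2 or mono-culture replicate 1 or 3 (edgeR adjusted p up to 0.0862). Sema4d averaged 553 ± 20.2 CPM in co-culture and 743 ± 45.2 CPM in mono-culture (log2 change -0.43, edgeR adjusted p = 0.00225, SD, n = 3 each). Igf1, Gas6 and Vegfa did not pass: Igf1 averaged 534 ± 52.6 CPM in co-culture and 629 ± 114 CPM in mono-culture (edgeR adjusted p = 0.397), Gas6 137 ± 40.5 CPM in co-culture and 115 ± 38.0 CPM in mono-culture (0.608) and Vegfa 28.7 ± 7.82 CPM in co-culture and 26.6 ± 1.50 CPM in mono-culture (0.859). Hbegf was among the genes set aside.

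The interferon-stimulated list had 12 of 24 members higher and 0 lower, against 2.86% and 4.38% of all genes. The other 12 were also higher on average in co-culture, and in 20 of the 24 genes the cultures did not overlap, against 22.3% of all genes without overlap in either direction. Ifit1 (chr19:34640871-34650009), an inhibitor of viral RNA translation, had 34.8, 12.1 and 12.4 CPM in co-culture, against 4.56, 3.97 and 5.37 CPM in mono-culture (log2 change 2.08 ± 0.49 (SE), edgeR adjusted p = 0.0135), a call lost without co-culture replicate 1 or mono-culture replicate 2 (edgeR adjusted p up to 0.0696). Co-culture replicate 1, from male macrophages, was the highest of the 3 co-culture libraries for Ifit1 and for each of the 24 genes, and for 4795 of the 12408 genes. Usp18, which restrains interferon receptor signalling, had 36.4, 13.4 and 18.9 CPM in co-culture, against 5.17, 7.48 and 9.37 CPM in mono-culture (log2 change 1.60, edgeR adjusted p = 0.00923). Stat2 (chr10:128270559-128292849), named after its values were seen, had 113, 71.1 and 67.9 CPM in co-culture, against 43.0, 41.7 and 44.9 CPM in mono-culture (log2 change 0.95, edgeR adjusted p = 0.00557).

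Rtp4, an interferon-induced chaperone that overlaps Masp1 in the table, had 66.3, 37.4 and 41.6 CPM in co-culture, against 12.8, 15.9 and 22.6 CPM in mono-culture (log2 change 1.48, edgeR adjusted p = 0.00166). Also called were Irf7, a master regulator of interferon genes, with 35.0 ± 17.4 CPM in co-culture and 13.6 ± 1.24 CPM in mono-culture (log2 change 1.35, edgeR adjusted p = 0.0467), and the RNA sensor Ddx58 (RIG-I), with 58.4 ± 23.6 CPM in co-culture and 30.0 ± 3.55 CPM in mono-culture (log2 change 0.95, edgeR adjusted p = 0.0223). Oas1a, an enzyme that activates RNase L, averaged 42.7 ± 10.7 CPM in co-culture and 29.0 ± 3.80 CPM in mono-culture (log2 change 0.54, edgeR adjusted p = 0.037, SD, n = 3 each). The Irf7 call was lost when any library other than co-culture replicate 3 was left out (edgeR adjusted p up to 0.229) and after subtraction (0.064). Ddx58 lost its call without co-culture replicate 1 or mono-culture replicate 1 or 3 (edgeR adjusted p up to 0.104). Oas1a lost it without co-culture replicate 1 or 3 or mono-culture replicate 1 or 2 (edgeR adjusted p up to 0.195). Isg15 and Ifit3 did not pass, with 12.7 ± 6.63 CPM in co-culture and 4.84 ± 0.820 CPM in mono-culture for Isg15 and 9.55 ± 8.10 CPM in co-culture and 2.30 ± 1.00 CPM in mono-culture for Ifit3. With replicates 2 and 3 alone 11 members were called and the median was 0.61. DESeq2 and the replicate block each called 16, the fit of only the compared libraries 5, and that without the low-count filter 7. Without co-culture replicate 1 the fit called 4 members, without mono-culture replicate 1 or 2 it called 5, without mono-culture replicate 3 it called 7, and without co-culture replicate 2 or 3 it called 11. Whether the source of the macrophages plays a part in the higher level of replicate 1 was not tested.

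Promoter windows of 4 called members are shown because they carry the element that interferon factors bind, the ISRE. RefSeq windows (build GRCm38.p6) run from 250 bases before to 50 bases after a gene's start, in the direction of transcription, and capitals mark GAAANNGAAA or its reverse complement. Ifit1 lies at chr19:34640639-34640938, plus strand, Stat2 at chr10:128270248-128270547, plus strand, Oas1a at chr5:120907476-120907775, minus strand and Ddx58 at chr4:40239776-40240075, minus strand.
Ifit1: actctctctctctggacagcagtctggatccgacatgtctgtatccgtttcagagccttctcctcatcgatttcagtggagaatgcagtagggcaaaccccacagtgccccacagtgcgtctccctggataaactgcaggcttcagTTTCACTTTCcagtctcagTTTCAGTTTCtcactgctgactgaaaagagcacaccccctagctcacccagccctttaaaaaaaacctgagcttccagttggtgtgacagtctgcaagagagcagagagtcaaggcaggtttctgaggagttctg
Stat2: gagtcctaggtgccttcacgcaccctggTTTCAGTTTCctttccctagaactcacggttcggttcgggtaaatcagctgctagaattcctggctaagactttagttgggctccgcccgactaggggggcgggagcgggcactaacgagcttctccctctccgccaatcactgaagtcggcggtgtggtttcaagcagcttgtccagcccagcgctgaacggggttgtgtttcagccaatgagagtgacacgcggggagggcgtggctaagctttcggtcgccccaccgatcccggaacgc
Oas1a: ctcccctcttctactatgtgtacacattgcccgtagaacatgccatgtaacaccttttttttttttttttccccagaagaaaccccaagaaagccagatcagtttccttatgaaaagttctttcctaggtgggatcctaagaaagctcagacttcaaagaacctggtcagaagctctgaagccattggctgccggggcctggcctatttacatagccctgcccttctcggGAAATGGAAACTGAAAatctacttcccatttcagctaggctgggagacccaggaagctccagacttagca
Ddx58: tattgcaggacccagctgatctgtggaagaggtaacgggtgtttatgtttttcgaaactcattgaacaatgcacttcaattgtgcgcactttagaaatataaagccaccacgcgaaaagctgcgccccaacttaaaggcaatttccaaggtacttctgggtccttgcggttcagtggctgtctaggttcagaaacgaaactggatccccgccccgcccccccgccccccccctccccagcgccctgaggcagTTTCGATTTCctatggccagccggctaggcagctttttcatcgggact

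Ifit1 holds 2 matches, the first starting 104 bases before the start, and Oas1a holds 2 that overlap each other, the first 20 bases before it. Stat2 has 1 match 222 bases before its start, and that of Ddx58 lies 2 bases after it. Over the 9247 genes with a window, 300 (3.24%) hold the motif on either strand, against 10 of 18 members of the list (55.6%). The motif is in 4 of 7 called and 6 of 11 uncalled members with a window. These counts describe the letters and show no binding.

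Receptors for uptake were split, with 5 of 17 members higher and 4 lower, against 2.86% and 4.38% of all genes. Of the 4 receptors for immunoglobulin G on the list, 3 rose and 1 did not pass: beside Fcgr2b, the activating high-affinity receptor Fcgr1 had 142, 122 and 120.3 CPM in co-culture, against 26.2, 43.9 and 48.7 CPM in mono-culture (log2 change 1.67 ± 0.28 (SE), edgeR adjusted p = 0.00144), and Fcgr3 averaged 443 ± 20.1 CPM in co-culture and 339.8 ± 44.8 CPM in mono-culture (log2 change 0.38, edgeR adjusted p = 0.0255). The Fcgr3 call was lost without co-culture replicate 2 or 3 or mono-culture replicate 2 or 3 (edgeR adjusted p up to 0.098). Fcgr4 averaged 10.5 ± 3.10 CPM in co-culture and 9.25 ± 1.84 CPM in mono-culture (log2 change 0.16, edgeR adjusted p = 0.796). Scavenger receptors went in both directions, with Msr1 and Stab1 higher and Cd36 and Scarb1 lower. Msr1 (chr8:39581685-39642673), which takes up modified lipoprotein, had 761, 931 and 1004 CPM in co-culture, against 346, 474 and 375 CPM in mono-culture, with no overlap between cultures (log2 change 1.17 ± 0.17 (SE), edgeR adjusted p = 0.000392). Stab1, a receptor for apoptotic cells, averaged 437 ± 88.8 CPM in co-culture and 214 ± 42.5 CPM in mono-culture (log2 change 1.03, edgeR adjusted p = 0.0366), a call lost with replicates 2 and 3 alone (edgeR adjusted p = 0.073).

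Cd36, which takes up fatty acids and oxidised lipoprotein, averaged 1721 ± 363 CPM in co-culture and 2643 ± 192 CPM in mono-culture (log2 change -0.62, edgeR adjusted p = 0.0296), and Scarb1, the receptor for high-density lipoprotein, 144 ± 14.7 CPM in co-culture and 219 ± 21.0 CPM in mono-culture (log2 change -0.61, edgeR adjusted p = 0.000578). The call on Cd36 was lost with replicates 2 and 3 alone (edgeR adjusted p = 0.168), after subtraction of tumour RNA (0.0625) and when any library other than co-culture replicate 3 was left out. Trem2, which senses lipids and myelin debris, had 595, 508 and 562 CPM in co-culture, against 871, 713 and 908 CPM in mono-culture (log2 change -0.58 ± 0.10 (SE), edgeR adjusted p = 0.00145). Its signalling adaptor Tyrobp averaged 658 ± 19.7 CPM in co-culture and 827 ± 72.1 CPM in mono-culture (log2 change -0.33, edgeR adjusted p = 0.0212), and the integrin Itgb2 1674 ± 165 CPM in co-culture and 2341 ± 61.9 CPM in mono-culture (log2 change -0.48, edgeR adjusted p = 0.0161, SD, n = 3 each).

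Of 14 genes of antigen presentation by MHC class I, 4 fell and 1 rose, against 4.38% and 2.86% of all genes. With replicates 2 and 3 alone 2 fell and 1 rose. H2-D1 had 1244, 1288 and 1449.9 CPM in co-culture, against 2237, 1775 and 2189 CPM in mono-culture (log2 change -0.64, edgeR adjusted p = 0.00683) and H2-K1 576, 595 and 627 CPM in co-culture, against 786, 837 and 961 CPM in mono-culture (log2 change -0.52, edgeR adjusted p = 0.00696). H2-Q4 and the low H2-Q7 also fell, and reads of these near-identical class I genes may be shared. Nlrc5, the transactivator of class I genes, went the other way, with 53.9 ± 7.07 CPM in co-culture and 38.1 ± 2.90 CPM in mono-culture (log2 change 0.50, edgeR adjusted p = 0.0202), a call lost without co-culture replicate 1 or mono-culture replicate 3 (edgeR adjusted p up to 0.102). No member of 8 on the class II list passed by edgeR in the main fit. Cd74, the invariant chain, averaged 696 ± 177 CPM in co-culture and 814 ± 228 CPM in mono-culture. DESeq2 called 1 class II member, lower, and so did edgeR with the replicate block. The main edgeR fit had 1 at an unadjusted p under 0.05.

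Of the genes that define the lineage, Csf1r, the receptor on which macrophages depend, had 2051, 1955 and 1972 CPM in co-culture, against 1905, 2363 and 1835 CPM in mono-culture, with mixed order between cultures (log2 change -0.03 ± 0.13). Of 16 lineage genes 2 were higher, among them Cd14 (log2 change 0.68, edgeR adjusted p = 0.0396), and 1 was lower, the transcription factor Spi1 (PU.1, log2 change -0.38, edgeR adjusted p = 0.02). The call on Spi1 was lost with replicates 2 and 3 alone (edgeR adjusted p = 0.092). Among 14 genes of alternative activation, Socs3, Il4ra and Tgfbi rose and Vsir (VISTA) fell. The interleukin 4 receptor chain Il4ra had 137, 146 and 143 CPM in co-culture, against 57.3, 77.3 and 73.4 CPM in mono-culture (log2 change 1.03, edgeR adjusted p = 0.000197). Tgfbi, a secreted matrix protein induced by TGF-beta, had 1622, 2155 and 1834 CPM in co-culture, against 336, 1036 and 693 CPM in mono-culture (log2 change 1.44, edgeR adjusted p = 0.0381), and its call was lost when any library other than mono-culture replicate 2 was left out (edgeR adjusted p up to 0.124). Arg1, a standard marker of this state, stayed at or below 1.06 CPM in co-culture and 0.0674 CPM in mono-culture, and Mrc1 averaged 155 ± 48.7 CPM in co-culture and 105 ± 44.0 CPM in mono-culture (edgeR adjusted p = 0.384). Complement genes had a median log2 change of 0.49. In the main edgeR fit 0 of 8 were called, with 5 at an unadjusted p under 0.05, and DESeq2 called 1 lower. The replicate block called 2 higher and 1 lower, and replicates 2 and 3 alone 1 lower. Leaving out a library gave 0 to 3 higher and 0 to 1 lower. The C1q chain C1qa, named after its values were seen, had 266, 145 and 311 CPM in co-culture, against 54.4, 60.1 and 169 CPM in mono-culture, with an overlap between mono-culture replicate 3 and co-culture replicate 2.

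Of 17 lipid uptake, storage and breakdown genes, 0 rose and 4 fell, against 2.86% and 4.38% of all genes. The median log2 change was -0.32, with 6 members above 0. The count of lower genes was 3 after subtraction of tumour RNA, 2 with replicates 2 and 3 alone, and 2 to 5 with 1 library left out (2 without co-culture replicate 2 or mono-culture replicate 1 or 3). DESeq2 and the replicate block each called 6 lower, and the block also 1 higher. Lpl (chr8:68880491-68907448), the lipase that frees fatty acids from lipoprotein, had 1722, 3229 and 3231 CPM in co-culture, against 6085, 8735 and 7293 CPM in mono-culture. Each co-culture library was below each mono-culture library, by 2.70-fold on average (log2 change -1.43 ± 0.28 (SE), edgeR adjusted p = 0.00415). Lipa (chr19:34492318-34527474), the lysosomal acid lipase that splits cholesteryl esters taken up by the cell, had 1321, 1188 and 1483 CPM in co-culture, against 2835, 2911 and 2653 CPM in mono-culture. It was 2.10-fold lower with little spread (log2 change -1.07 ± 0.13 (SE), edgeR adjusted p = 0.000103). Pnpla2, the lipid droplet triglyceride lipase, averaged 57.2 ± 4.04 CPM in co-culture and 90.2 ± 15.2 CPM in mono-culture (log2 change -0.65, edgeR adjusted p = 0.0187); its call was lost with replicates 2 and 3 alone (edgeR adjusted p = 0.166).

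The lipid droplet coat gene Plin2 had 594, 517 and 545 CPM in co-culture, against 770.5, 667 and 781 CPM in mono-culture. The cultures did not overlap, but the test fell short (log2 change -0.42 ± 0.13, edgeR adjusted p = 0.052). Gpnmb, a marker of lipid-laden macrophages and among the most abundant transcripts, averaged 13413 ± 1530.4 CPM in co-culture and 19957 ± 4972 CPM in mono-culture and did not pass (edgeR adjusted p = 0.203). Of the 20 markers of lipid-associated macrophages, Spp1 and Ctsl rose and Lpl, Trem2, Cd9 and Tyrobp fell. Tfeb, the transcription factor of lysosome genes, averaged 34.9 ± 2.54 CPM in co-culture and 65.8 ± 17.9 CPM in mono-culture (log2 change -0.90, edgeR adjusted p = 0.00424), a call lost with replicates 2 and 3 alone (edgeR adjusted p = 0.09). Of 27 lysosome genes 3 were lower and 1 higher, against 4.38% and 2.86% of all genes. The higher one was the protease gene Ctsl with 3616 ± 273 CPM in co-culture and 2601 ± 259.6 CPM in mono-culture (log2 change 0.48, edgeR adjusted p = 0.0195). Its call was likewise lost with replicates 2 and 3 alone (edgeR adjusted p = 0.0552).

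Genes of sterol export mostly did not pass. Abca1, the transporter that loads cholesterol onto apolipoprotein, had 428, 149 and 247 CPM in co-culture, against 215, 132 and 208 CPM in mono-culture (log2 change 0.57 ± 0.40, edgeR adjusted p = 0.423). Apoe averaged 806 ± 291 CPM in co-culture and 851 ± 318 CPM in mono-culture (edgeR adjusted p = 0.94). Of 11 LXR targets 1 passed, Arl4c, which was higher (log2 change 0.58, edgeR adjusted p = 0.0259). Its call was lost with replicates 2 and 3 alone (edgeR adjusted p = 0.137) and without co-culture replicate 1 or mono-culture replicate 1 or 2 (up to 0.126). Of 13 fatty acid synthesis genes 0 passed by edgeR in the main fit and 0 by DESeq2, with 3 lower at an unadjusted p under 0.05. Called lower were 2 with the replicate block, 1 with replicates 2 and 3 alone, and 0 to 1 with a library left out.

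Cholesterol synthesis and uptake genes had a median log2 change of 0.01, with 0 of 24 higher and 1 lower, Tm7sf2 (log2 change -0.49, edgeR adjusted p = 0.0377). That call was lost with replicates 2 and 3 alone (edgeR adjusted p = 0.0524), after subtraction (0.0965) and when any library other than mono-culture replicate 2 was left out. The co-culture libraries disagreed with each other. Co-culture replicate 1 was the lowest of the 3 for 22 of the 24 genes. Hmgcs1 (chr13:119690379-119708260), an early enzyme of the pathway, had 43.8, 144 and 133 CPM in co-culture, against 89.6, 81.3 and 89.9 CPM in mono-culture. Replicates 2 and 3 of co-culture were above each mono-culture library and replicate 1 below each. Insig1, the sterol sensor that holds SREBP back, had 24.7, 78.5 and 71.2 CPM in co-culture, against 58.7, 37.9 and 46.3 CPM in mono-culture, in the same order. Fdft1, which makes squalene and overlaps Ctsb in the table, had 23.1, 52.1 and 45.6 CPM in co-culture, against 38.5, 28.6 and 33.5 CPM in mono-culture, again with replicate 1 lowest. Stard4, a carrier of cholesterol in the cell, had 41.2, 94.4 and 93.6 CPM in co-culture, against 41.5, 47.0 and 48.8 CPM in mono-culture, where replicate 1 was close to the lowest mono-culture library.

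Within replicates 2 and 3, the fit called 7 of 24 cholesterol genes higher in co-culture at 6 h, against 2.8% of all genes. The same fit tested whether the culture difference at 6 h differed from that at 0 h, and called 8 of 12158 genes (0.0658%): Rai14, lower (0.00823%, log2 difference -0.85), and 7 genes of sterol metabolism, higher (0.0576%). Hmgcs1 differed by 1.47 ± 0.14 on the log2 scale (SE, edgeR adjusted p = 0.00148), Insig1 by 1.48 ± 0.17 (edgeR adjusted p = 0.00387), Fdft1 by 1.30 ± 0.15 (edgeR adjusted p = 0.00387), Stard4 by 1.22 ± 0.16 (edgeR adjusted p = 0.0120) and Hsd17b7 by 1.15 ± 0.18 (edgeR adjusted p = 0.0447). With all 3 replicates none of these passed: the difference was 1.02 ± 0.39 for Hmgcs1 and 0.86 ± 0.39 for Insig1 (edgeR adjusted p above 0.999). Apart from Hmgcs1, these genes were named after their values were seen.

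At 0 h, before myelin, the order was the reverse for Hmgcs1, with 160.0, 170.1 and 185 CPM in co-culture, against 257, 285 and 308 CPM in mono-culture and no overlap. At 24 h the cultures overlapped, with 71.8, 57.3 and 66.4 CPM in co-culture, against 71.5, 64.6 and 68.7 CPM in mono-culture. Insig1 had 99.1, 102 and 106 CPM in co-culture, against 135, 157 and 158 CPM in mono-culture at 0 h, likewise without overlap. In co-culture replicate 1, which the fit on replicates 2 and 3 did not use, 6 of the 7 sterol genes were below each mono-culture library at 6 h. Co-cultured tumour cells held 521 CPM of Hmgcs1, and the share of tumour RNA was lower in replicate 1 (0.977%) than in replicates 2 (3.34%) and 3 (1.34%). Its part in the order of the libraries was not tested.

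**Figure D3:**
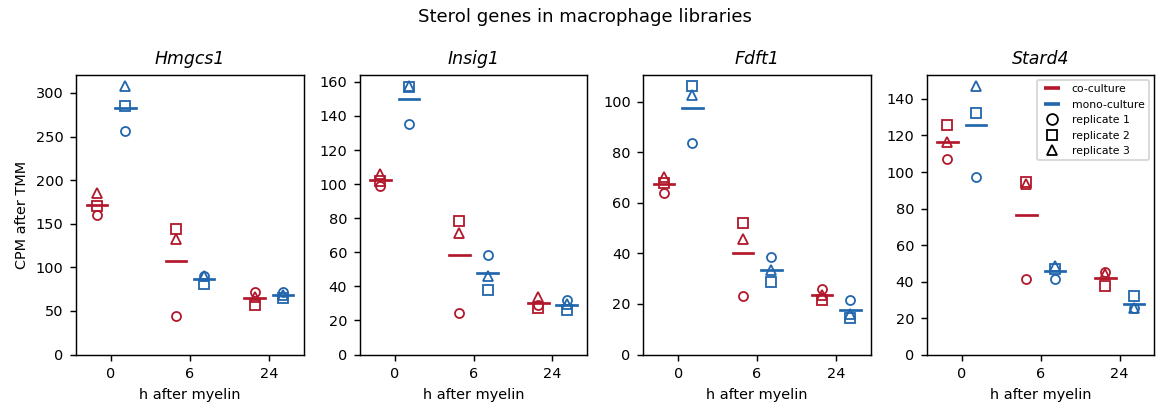
Levels of Hmgcs1, Insig1, Fdft1 and Stard4 in CPM after TMM normalisation at 0, 6 and 24 h after myelin, with 1 symbol per macrophage library, replicate numbers by shape, and a bar at each mean (co-culture red, left of mono-culture blue). At 0 h co-culture lies below mono-culture for Hmgcs1, Insig1 and Fdft1 and overlaps it for Stard4, and at 6 h co-culture replicates 2 and 3 lie above mono-culture and replicate 1 below it.

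The Hmgcs1 promoter is shown because it holds the sterol regulatory element that SREBP binds. Its RefSeq window (GRCm38.p6, chr13:119690101-119690400, plus strand) has 1 match to TCACNCCAC, in capitals, 137 bases before the start.
Hmgcs1: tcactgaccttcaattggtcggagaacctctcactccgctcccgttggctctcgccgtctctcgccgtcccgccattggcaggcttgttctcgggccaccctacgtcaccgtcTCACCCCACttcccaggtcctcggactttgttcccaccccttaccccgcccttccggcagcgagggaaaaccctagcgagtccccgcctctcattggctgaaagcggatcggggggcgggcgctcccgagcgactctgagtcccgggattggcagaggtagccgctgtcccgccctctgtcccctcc
On either strand the motif is in 97 of 9247 windows (1.05%) and in 1 of 17 windows of the cholesterol list (5.88%).

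Oxidative stress genes under NRF2 were lower, with 8 of 17 called lower and 0 higher, against 4.38% and 2.86% of all genes. The co-culture mean was below mono-culture in each of the 17. Prdx1, a peroxiredoxin, had 1560.3, 2251 and 2345 CPM in co-culture, against 3471, 3335 and 3595 CPM in mono-culture (log2 change -0.76, edgeR adjusted p = 0.00961). Catalase (Cat) had 282, 288 and 317 CPM in co-culture, against 562, 533 and 382 CPM in mono-culture (log2 change -0.73, edgeR adjusted p = 0.0047) and the sulfiredoxin gene Srxn1 207, 233 and 238 CPM in co-culture, against 354, 384 and 331 CPM in mono-culture (log2 change -0.65, edgeR adjusted p = 0.000896). None of these overlapped between cultures, which was a condition for naming them. Txnrd1, Taldo1, Pgd, Osgin1 and Sqstm1 were the other 5, with log2 changes of -0.64 to -0.41. The count was 4 after subtraction of tumour RNA, 4 with replicates 2 and 3 alone, and 3 to 8 with 1 library left out. DESeq2 called 9 lower and the replicate block 11. Co-culture replicate 1 was the lowest of its group for 16 of the 17 genes. The median log2 change was -0.47, and -0.32 with replicates 2 and 3 alone.

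Of 12 genes of the integrated stress response, 4 rose and 0 fell, against 2.86% and 4.38% of all genes. All 4 encode enzymes of amino acid and one-carbon synthesis. Mthfd2 averaged 90.3 ± 3.01 CPM in co-culture and 56.2 ± 6.78 CPM in mono-culture (log2 change 0.68, edgeR adjusted p = 0.0201), Aldh18a1 34.4 ± 4.20 CPM in co-culture and 22.3 ± 3.99 CPM in mono-culture (log2 change 0.61, edgeR adjusted p = 0.0112), Phgdh 30.0 ± 2.47 CPM in co-culture and 21.4 ± 1.54 CPM in mono-culture (log2 change 0.48, edgeR adjusted p = 0.0277) and Shmt2 90.3 ± 2.97 CPM in co-culture and 64.3 ± 10.4 CPM in mono-culture (log2 change 0.48, edgeR adjusted p = 0.0372, SD, n = 3 each). Tumour cells held 270.3 CPM of Phgdh, and its call was lost after subtraction (edgeR adjusted p = 0.341). Subtraction left 2 members called, and leaving out 1 library left 1 to 4. DESeq2 called 6 and the replicate block 8. Of 16 ER chaperone genes 2 rose (Pdia4 and Herpud1), and 2 heat shock genes of 11 fell, with Bag3 at 73.8 ± 5.60 CPM in co-culture and 134 ± 3.12 CPM in mono-culture (log2 change -0.86, edgeR adjusted p = 2.41e-05).

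Immediate early genes, which respond to signals within minutes, had 2 of 18 members higher and 2 lower, against 2.86% and 4.38% of all genes. The count of higher members depended on the setting, with 7 in replicates 2 and 3 alone, 4 by DESeq2 and 2 to 4 with 1 library left out, while 2 were lower in each of these. Ier3 had 15.0, 32.9 and 29.8 CPM in co-culture, against 7.60, 7.48 and 7.05 CPM in mono-culture (log2 change 1.82, edgeR adjusted p = 0.000454), with 96.4 CPM in co-cultured tumour cells. Egr2 had 37.2, 45.1 and 54.0 CPM in co-culture, against 167, 134 and 165 CPM in mono-culture (log2 change -1.77 ± 0.24 (SE), edgeR adjusted p = 0.000257). Atf3, also a stress factor that represses inflammatory genes, had 224, 182 and 210.0 CPM in co-culture, against 518, 399 and 496 CPM in mono-culture (log2 change -1.20 ± 0.13 (SE), edgeR adjusted p = 3.44e-05). Of the feedback inhibitors of MAP kinase, 2 of 10 rose, with Dusp6, the phosphatase of ERK, at 104 ± 5.85 CPM in co-culture and 47.7 ± 12.0 CPM in mono-culture (log2 change 1.11, edgeR adjusted p = 0.00304). The iron exporter Slc40a1 averaged 6.41 ± 1.79 CPM in co-culture and 16.8 ± 4.37 CPM in mono-culture (log2 change -1.36, edgeR adjusted p = 0.00701). By edgeR in the main fit 0 of 19 S phase genes and 0 of 19 G2 and mitosis genes passed, and 0 of each by DESeq2, with 2 and 0 at an unadjusted p under 0.05. The replicate block called 1 S phase gene higher and 1 lower, and replicates 2 and 3 alone 1 lower. The co-culture mean was higher for 18 S phase genes and 19 G2 and mitosis genes, with co-culture replicate 1 the highest of its group for 13 and 19. Mono-culture replicate 1 was the lowest of its group for 18 and 17 of them, and for 5282 of all 12408 genes.

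Most genes called at 6 h were also called before myelin and at 24 h. Co-culture against mono-culture called 1295 genes at 0 h (10.4%; 4.05% higher and 6.39% lower) and 3062 at 24 h (24.7%; 10.1% higher and 14.6% lower). Of the 898 genes called at 6 h, 667 were also called at 0 h, all in the same direction, which is 74.3% of the 6 h calls and 51.5% of the 0 h calls. At 24 h 774 were called, again in the same direction, 86.2% of the 6 h calls and 25.3% of the 24 h calls. Only at 6 h were 63 genes called, which does not show that they differ from the other times. The median size of the change over the 898 genes was 0.61 on the log2 scale at 6 h, and taken in the 6 h direction it was 0.59 at 0 h and 0.70 at 24 h. The 3 times share no libraries, but they share 1 fit. By Xist and Ddx3y, macrophage libraries of the same number share a sex at each time. The labels do not say whether the times share a macrophage source, so their agreement may not be independent. At 0 h, where libraries of the same number deviated together, the fit with the replicate number as a block called 1983 genes.

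The difference between times was then tested. By edgeR 0 of 12408 genes (0%) had a culture difference at 6 h that differed from that at 0 h, with 309 (2.49%) at an unadjusted p under 0.05, and DESeq2 called 1. Between 24 h and 6 h edgeR called 0 genes (0%), with 751 (6.05%) at an unadjusted p under 0.05, and DESeq2 called 8.

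Fcgr2b and Trem1 were apart at each time. Fcgr2b had 45.2, 51.3 and 59.4 CPM in co-culture at 0 h, against 12.0, 9.80 and 12.8 CPM in mono-culture, close to its 6 h values. Trem1 had 18.7, 34.4 and 20.1 CPM in co-culture, against 0.721, 2.55 and 2.01 CPM in mono-culture at 0 h, and 15.1, 14.4 and 8.93 CPM in co-culture, against 0.200, 0.638 and 0.248 CPM in mono-culture at 24 h. For the interferon list 0 of 24 genes were called at 0 h (median log2 change 0.40), 12 at 6 h (1.06) and 21 at 24 h (1.50), all higher. Calls over all genes also varied by time, with 4.05% higher at 0 h, 2.86% at 6 h and 10.1% at 24 h. Stat2 had 69.3, 55.0 and 57.7 CPM in co-culture, against 70.1, 52.7 and 59.0 CPM in mono-culture at 0 h, where the cultures overlapped, and 135, 84.7 and 86.6 CPM in co-culture, against 59.8, 56.2 and 53.5 CPM in mono-culture at 24 h. Its difference at 6 h exceeded that at 0 h by 0.95 ± 0.28 (log2, SE), at an edgeR adjusted p above 0.999. The median of this difference over the list was 0.68, against -0.01 over all genes. With replicates 2 and 3 alone the median was 0.32, against 0.01 over all genes. No gene of the list passed in either fit.

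**Figure D4:**
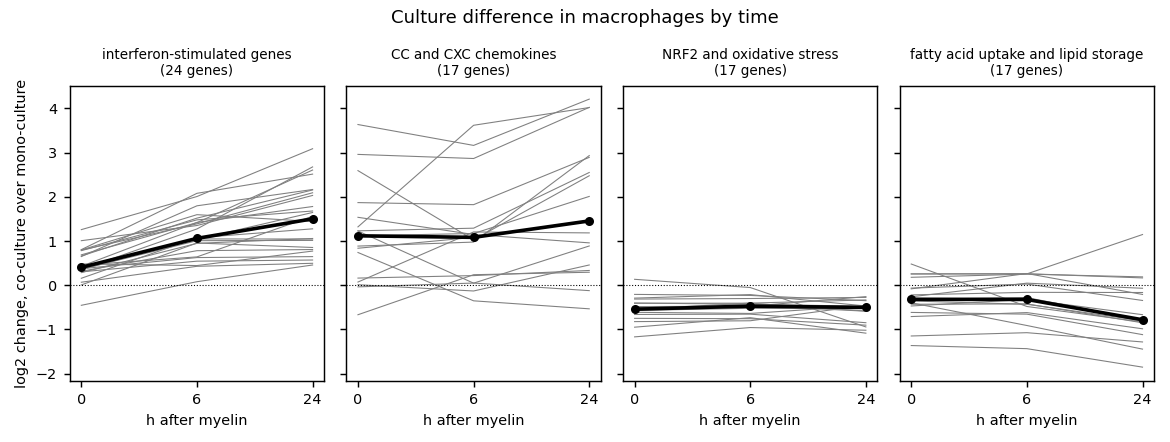
Log2 change of co-culture over mono-culture at 0, 6 and 24 h after myelin for the members of 4 gene lists (thin lines, 1 gene each) with the list median (thick line). The interferon list moves up from a median of 0.40 at 0 h to 1.50 at 24 h, the chemokine median stays above 1, and the medians of NRF2 and lipid storage genes stay below 0 at each time.

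Abca1 had a larger value of the culture difference at 0 h than at 6 h. At 0 h it had 275, 124 and 152 CPM in co-culture, against 61.4, 22.8 and 57.0 CPM in mono-culture (log2 change 1.97), and at 6 h the cultures overlapped. The difference between these culture differences was -1.40 ± 0.57 (log2, SE) and did not pass after adjustment. Of the chemokines, 7 of 17 were called at 0 h, 8 at 6 h and 11 at 24 h, all higher, against 4.05%, 2.86% and 10.1% of all genes. Ccl4 was near equal at 0 h (log2 change 0.07) and higher in co-culture at 6 h (1.20) and 24 h (1.18). NRF2 genes were lower at each time, with 9, 8 and 11 of 17 called lower at 0, 6 and 24 h, against 6.39%, 4.38% and 14.6% of all genes.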

How the data were processed

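Macrophages were purified from the cultures per the labels' protocols, and libraries were made from total RNA by oligo-dT priming and template switching. The deposited values are raw counts per gene for 36 libraries, made by the authors on mm10 per the submitters' processing notes. The sources used here name no aligner or counter, and low RNA input can widen the spread between libraries.

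The 18 macrophage libraries (6 groups of 3) shared 1 fit in R 4.3.3 (edgeR 4.0.16, with limma 3.58.1; TMM, filterByExpr, robust quasi-likelihood, Benjamini-Hochberg over 13165 genes). The biological coefficient of variation was 0.164. Genes set aside were removed after the fit. Levels are CPM after TMM. The SE is the size of the log2 change over the square root of F. Tumour RNA was the median, over 50 genes with at least 100 CPM in tumour cells, of the level in a library over that in tumour cells alone at 0 h. Subtraction used the share times the mean CPM of co-cultured tumour cells of the same hour.

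The lists and compared groups were chosen with earlier results of these data known. Of 581 list genes 573 were found in the table. Named genes are the 12 largest called changes per direction. They have at least 10 CPM in a group, no overlap between cultures and a proper symbol. To these come at most 3 called genes from any list with 3 or more calls, under the same conditions, and 20 followed genes. For genes named by these conditions, lack of overlap was fixed by the choice and is no further evidence. Other list members, and genes marked so in the text, were named after their values were seen. Counts were also tested by DESeq2 1.42.0, without the low-count filter, with RLE size factors, with only the libraries compared, non-robust dispersions, the replicate block, replicates 2 and 3 alone, each library left out, other ratios for genes set aside and subtraction of tumour RNA. Subtraction at 0 h, at 24 h and in the differences between times was chosen after seeing the data. On simulated counts for the 6 h comparison (12893 genes), 50 of 50 genes changed by 2 and 48 of 50 changed by 1 on the log2 scale upward were called, and 50 of 50 and 45 of 50 downward, with 6 false calls among 199. The simulation left out the least expressed genes from those changed. It held no effect of replicate or source and no tumour RNA, so these rates apply to that setting only. Some genes that these rules name are not reported here. Libraries of the same number had residual correlations of 0.774, 0.694 and 0.288 at 0 h, each above the limit of 0.1 for pairing, a check on the data and not a statement of the labels. Co-culture replicate 3 correlated at 0.480 with mono-culture replicate 2, and co-culture replicate 2 at 0.343 with mono-culture replicate 3. The check therefore does not single out libraries of the same number. RefSeq promoter windows were matched by symbol and chromosome for 9247 genes, taking the start nearest the gene's end in the table.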

Additional observations from a re-analysis of the deposited data

How the results depend on the processing

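Of 898 calls at 6 h, the count was 510 with only the compared libraries in the fit, and 714 to 1110 with DESeq2, RLE size factors, no filter, non-robust dispersions or replicates 2 and 3 alone; with other ratios for the genes set aside it was 847 (5) and 882 (10), and with none set aside 1309. Leaving out 1 library gave 574 to 877 at 6 h, 648 to 1024 of 1295 at 0 h (648 without co-culture replicate 2, 822 without mono-culture replicate 1) and 1896 to 3469 of 3062 at 24 h (1896 without mono-culture replicate 1). The difference between 6 h and 0 h had 1 call with DESeq2, 8 with replicates 2 and 3 alone, and 0 to 1 with a library left out; that between 24 h and 6 h had 8 with DESeq2 and 0 to 10 with a library left out (10 without mono-culture replicate 2 at 24 h). The cause of these shifts was not tested. The gap in tumour RNA share was 1.81 to 2.08 percentage points with other markers or levels and 1.15 to 2.33 with a library left out. With the replicate block, 1549 genes were called at 6 h, 1983 at 0 h, 4004 at 24 h, 0 in the difference between 6 h and 0 h and 1 in that between 24 h and 6 h. Same-number libraries at 6 h had residual correlations of 0.18, -0.02 and 0.29, and at 24 h the third was 0.07, so not all were above the limit of 0.1. By Xist and Ddx3y, macrophage libraries of the same number share a sex in both cultures. These correlations therefore do not show that the libraries are unpaired. Of 63 named genes that were called, 44 kept their call in each setting run, 16 lost it with some library left out, 16 in another setting, and 0 turned in direction. Among those named without it above, Cd14 lost its call without any library other than mono-culture replicate 2. Irak3 lost it without co-culture replicate 1 or 2 or mono-culture replicate 1 or 3, Phgdh without co-culture replicate 2 or 3 or mono-culture replicate 1 or 3, and Ctsl without co-culture replicate 2 or 3 or mono-culture replicate 1 or 2. Spi1 lost it without co-culture replicate 1 or 2 or mono-culture replicate 1, Mthfd2 without co-culture replicate 1 or 3 or mono-culture replicate 1, Pnpla2 without co-culture replicate 2 or mono-culture replicate 1 or 3, and Nfkbiz and Aldh18a1 without co-culture replicate 2. Taldo1, H2-Q7 and Cxcl3 lost it whichever library was left out. Pgd lost it without any library other than mono-culture replicate 3, and Shmt2 without any other than mono-culture replicate 2. Sqstm1 lost it without any co-culture library or mono-culture replicate 1. Stab1 lost it without co-culture replicate 1 or 3 or mono-culture replicate 1 or 2, and Osgin1 without co-culture replicate 1 or 3 or mono-culture replicate 2. Txnrd1 lost it without replicate 1 or 2 of either culture, and Tyrobp without co-culture replicate 1 or 2 or mono-culture replicate 1 or 3. Cd9 and Itgb2 lost it without co-culture replicate 1, Hgf without co-culture replicate 3 and H2-Q4 without mono-culture replicate 3. With replicates 2 and 3 alone H2-D1, Irak3, Mthfd2 and Aldh18a1 were also lost. Of all 92 called list members, 38 kept their call in each setting, 48 lost it with some library left out, 31 with replicates 2 and 3 alone and 20 after subtraction, and 0 turned; among those 31 were Oas1a, Osgin1, Pgd, Sqstm1, Taldo1, Shmt2, Slc40a1, Tyrobp and H2-Q7. Leaving out a library leaves 2 in its group, and the shared fit supplies the spread. Depth limits genes under about 1 CPM, such as Arg1.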
